A study of Mus musculus with 6 samples.

Results

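The SLC25 genes encode the mitochondrial carriers, a family of related membrane proteins that move nucleotides, phosphate, carboxylates, amino acids, cofactors and iron across the mitochondrial inner membrane, with a few members in other membranes. Their expression was compared between leukaemic granulocyte-macrophage progenitors (L-GMP) of wild-type (WT) and AMPK-knockout (KO) C57BL/6 mice. Members were taken as every row whose symbol starts with Slc25a, without the citrate carrier gene Slc25a1 and without pseudogenes, which gave 46 of the 47643 genes in the table. Of these, 30 averaged 1 FPKM or more across the libraries and were tested, 11 were above 0 but under that mean, and 5 (Slc25a2, Slc25a21, Slc25a31, Slc25a41 and Slc25a54) were listed at 0 in every library. FPKM is the read number per gene scaled by gene length and library size, so levels can be compared between genes.

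Each library is RNA from sorted L-GMP, the leukaemic counterpart of the precursor of granulocytes and monocytes, with 3 WT libraries and 3 libraries labelled as double knockout for Prkaa1 and Prkaa2. Both encode catalytic alpha subunits of the AMP-activated kinase (AMPK), a sensor of low cellular energy. The sources used here give no oncogene, no construct that deletes the genes, no ages and no number of mice. Whether the replicates are separate mice is not stated, so a p-value reflects the spread of these libraries alone, which may be technical.

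Carriers set which metabolites the mitochondrial matrix can exchange with the cytosol. The ADP/ATP carriers export ATP in return for ADP, the phosphate carrier supplies phosphate for ATP synthesis, and the aspartate/glutamate carriers together with the 2-oxoglutarate/malate carrier form the malate-aspartate shuttle, which brings the reducing power of cytosolic NADH into the matrix. In dividing blood cells the iron and glycine carriers feed haem synthesis, and the folate, coenzyme A and nucleotide carriers supply matrix enzymes and mitochondrial DNA.

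Upstream sequence of 4 carriers is shown because these are the pair of aspartate/glutamate carriers, which fell together, and, next to Slc25a13, another carrier that fell and one that rose with the same motif before the RefSeq start. The stretches come from RefSeq promoter windows on GRCm38.p6 (mm10), read 5′ to 3′ on the gene's strand and ending just before the RefSeq start, or for Slc25a14 alone before the GENCODE start. They are chr2:71367756-71368005 (minus strand, Slc25a12), chr6:6217174-6217423 (minus, Slc25a13), chr4:149774268-149774517 (minus, Slc25a33) and chrX:48623198-48623412 (plus, Slc25a14). Capitals mark CACGTG, the E-box bound by MYC and other helix-loop-helix factors.
Slc25a12: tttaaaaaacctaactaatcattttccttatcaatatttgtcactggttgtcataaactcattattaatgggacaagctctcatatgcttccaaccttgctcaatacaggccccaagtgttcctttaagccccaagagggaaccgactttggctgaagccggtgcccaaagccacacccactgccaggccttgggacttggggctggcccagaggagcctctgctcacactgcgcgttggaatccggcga
Slc25a13: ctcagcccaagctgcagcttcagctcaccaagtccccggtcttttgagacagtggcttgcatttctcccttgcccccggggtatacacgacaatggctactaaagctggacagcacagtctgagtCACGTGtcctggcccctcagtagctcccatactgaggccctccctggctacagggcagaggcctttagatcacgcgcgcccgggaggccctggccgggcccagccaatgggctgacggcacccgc
Slc25a33: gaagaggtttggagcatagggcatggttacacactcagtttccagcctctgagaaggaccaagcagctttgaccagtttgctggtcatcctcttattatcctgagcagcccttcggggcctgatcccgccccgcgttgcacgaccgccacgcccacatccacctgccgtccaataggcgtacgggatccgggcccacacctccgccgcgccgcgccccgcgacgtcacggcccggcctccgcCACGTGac
Slc25a14: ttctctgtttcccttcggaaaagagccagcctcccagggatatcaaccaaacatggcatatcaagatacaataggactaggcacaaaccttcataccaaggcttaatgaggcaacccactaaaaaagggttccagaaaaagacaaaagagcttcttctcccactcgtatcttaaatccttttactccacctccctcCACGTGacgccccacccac
The first base of the E-box lay 125 bases before the RefSeq start in Slc25a13, 8 in Slc25a33 and 54 in Slc25a14. The last 10 bases of the Slc25a33 stretch, which hold its E-box, lie inside the gene as GENCODE annotates it. In Slc25a12, which carried the largest fall of the 4, CACGTG was absent from the window.

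RefSeq windows, 250 bases before to 50 after a start, matched 35 of the 46 members by symbol. CACGTG stood in a window of 6 of these 35 (17.1%) and of 8.09% of the 27025 genes in the RefSeq table: Slc25a13, Slc25a15 and Slc25a33 were lower in KO, Slc25a14 was higher, and Slc25a31 and Slc25a36 were not tested. The motif of NRF1 (GCGC, any base, then TGCGC) stood in 2 (5.71% against 5.19% of all genes), in Slc25a3 and Slc25a31. AGATAA, read by GATA factors, stood in 3 (8.57% against 12.7%), in Slc25a5, Slc25a22 and Slc25a53. TGATGNAA, the core of the ATF4 element, was in none of these windows and in 4.51% of all genes. Both strands were searched and none of these motifs holds another, and such matches describe letters, not binding.

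Library facts are given here once. Whole reads recovered from the FPKM values came to 11460936 to 16518785 per WT library and 12743322 to 14438366 per KO library. Prkaa1 was at 2.01, 2.20 and 1.80 FPKM in the WT libraries and 1.11, 0.735 and 0.548 in the KO libraries, 39.8% of the WT mean and called lower (limma adjusted p = 0.00112), while Prkaa2 reached at most 0.0220 FPKM in any library, too low to check its deletion. FPKM summed to 463683 to 475654 in WT and to 649611 to 653819 in KO. With libraries rescaled to equal sums, the median log2 change of all genes moved from -0.022 to -0.41, and the share of higher genes among those called from 48.5% to 27.8%. Markers of neutrophils summed to 318 to 332 FPKM in WT and 71424 to 72819.8 in KO, those of basophils, mast cells and eosinophils to 32.9 to 39.02 and 581 to 611, those of monocytes to 478 to 493 and 166 to 176, and those of B cells to 52.2 to 57.3 and 1.94 to 3.25. Markers of granulocyte-macrophage progenitors, the labelled type, summed to 8261 to 8580 and 17066 to 17378, with none of the 9 listed at 0 throughout a genotype. Of the 8 tested, 4 rose (3 on rescaling), Elane among them, and 4 fell, Cd34 among them. Those of T cells summed to at most 0.663 and those of natural killer cells to at most 0.0399 FPKM. In sorted bulk RNA, a change in the mix of cells and a change per cell cannot be told apart, and the part of these markers in the carriers' values was not tested.

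Carrier expression was concentrated in a few genes. Summed over the 46 members it was 2577, 2651 and 2629 FPKM in the WT libraries and 2397, 2386 and 2411 in the KO libraries, so that each KO sum lay under each WT sum. Slc25a5 alone made up 57.9 to 58.8% of the WT sum and 53.2 to 53.7% of the KO sum. The 5 most abundant members, Slc25a5, Slc25a39, Slc25a4, Slc25a3 and Slc25a11, held 89.3 to 89.9% in WT and 88.9 to 89.5% in KO. Without Slc25a5, the sum was 1074 to 1107 FPKM in WT and 1106 to 1127 in KO, and these ranges overlapped. As a share of all FPKM in a library, the members took 0.553 to 0.563% in WT and 0.365 to 0.371% in KO. Without the 16 genes that were among the 10 most abundant of either genotype, the shares were 0.624 to 0.634% and 0.553 to 0.560%.

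Of the 30 tested members, 11 rose and 14 fell in KO, and 5 did not pass the test (limma on log2(FPKM + 1), Benjamini-Hochberg adjusted p under 0.05 over 9108 genes). The shares, 36.7% higher and 46.7% lower, stood beside 38% and 40.4% of all genes tested. KO and WT values did not overlap in 25 members (83.3%, against 80.6% of all genes). A change of at least 2-fold on that scale was called in 5 members, Slc25a12, Slc25a47, Slc25a38, Slc25a33 and Slc25a16 (16.7%, against 26.5% of all genes). All these shares were near or under the background. Means over all libraries let 6 members pass although one genotype lay under 1 FPKM: Slc25a16 in WT, and Slc25a47, Slc25a15, Slc25a22, Slc25a30 and Slc25a32 in KO. The median log2 change of the tested members was 0.028, that of all genes -0.022 and that of 74 other nuclear-encoded mitochondrial genes -0.065. The middle 50% of the members lay between -0.58 and 0.36, and the middle 50% of the other mitochondrial genes between -0.32 and 0.23. Rescaling libraries to equal sums lowered KO values relative to WT by construction, so that falls could only deepen and rises could only shrink or turn. All 14 falls kept their call there, and 4 of the 11 rises did (Slc25a10, Slc25a14, Slc25a16 and Slc25a29). Another 5 rises lost it, and Slc25a3 and Slc25a17 were called lower. Cyclic loess, quantile scaling, scaling to the 74 mitochondrial genes and voom on recovered reads each kept all 11 rises and all 14 falls.

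**Figure D1:**
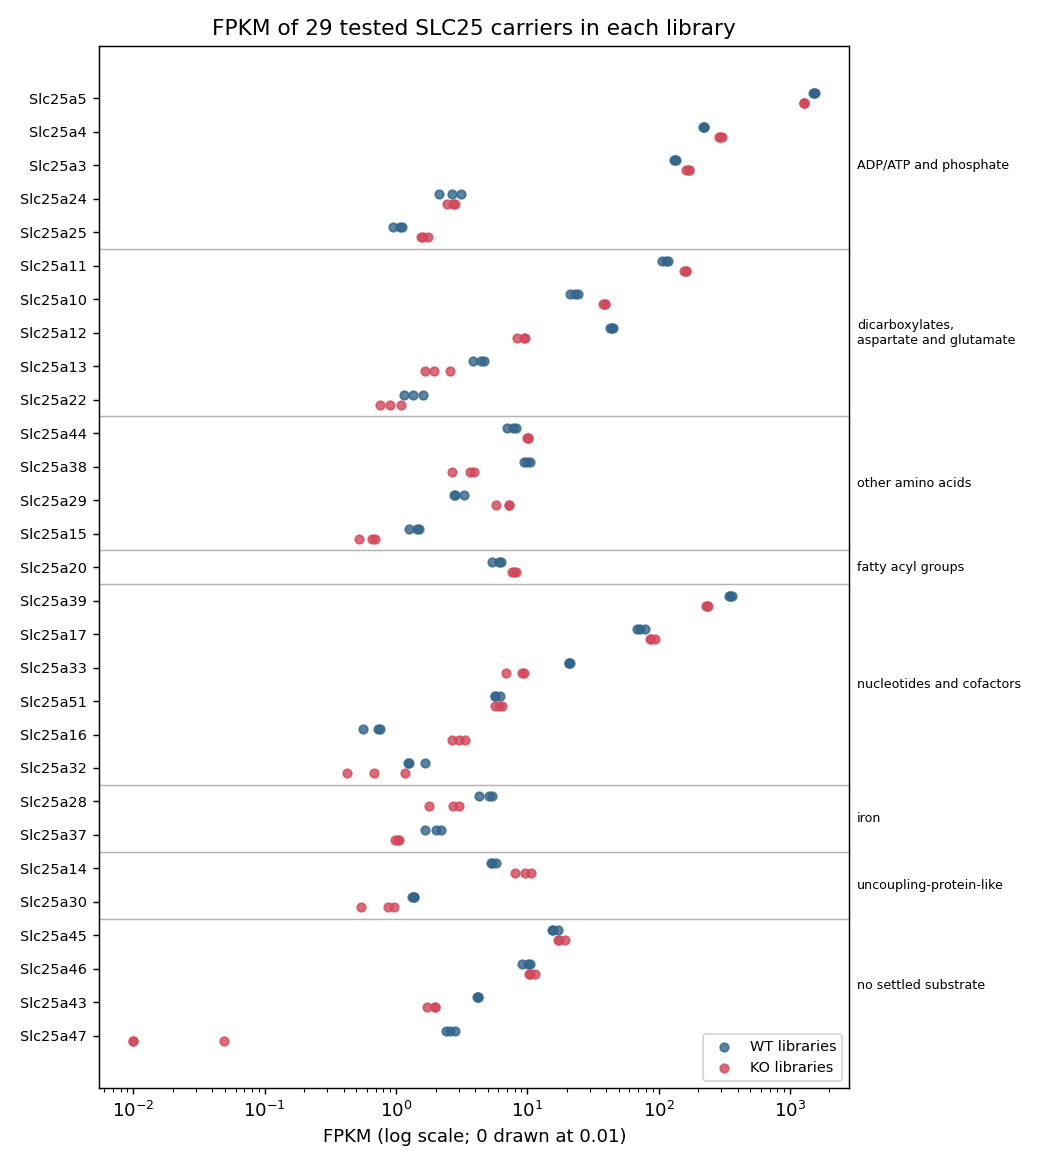
FPKM of 29 tested carriers, on a log axis, with 1 point per library (blue WT, red KO) and the members grouped by what they carry; listed 0 values are drawn at 0.01. Slc25a5 stands above 1000 FPKM in all 6 libraries, and the blue and red points of Slc25a12, Slc25a33, Slc25a38, Slc25a16 and Slc25a47 are set well apart.

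Among the ADP/ATP carriers, the more abundant Slc25a5 fell and Slc25a4 rose as deposited. Slc25a5 (ANT2, the form of dividing cells) was at 1503, 1558 and 1521 FPKM in the WT libraries and 1283, 1280.4 and 1283 in the KO libraries. Each KO value lay under each WT value, and the KO libraries differed from each other by under 3 FPKM. The fall was 1.19-fold (log2 change -0.25, SE 0.02, adjusted p = 6.00e-06). Slc25a4 (ANT1, the main form of heart and muscle) was at 219.7, 220.4 and 221 FPKM in WT and 294, 289 and 303 in KO, with KO above WT throughout. It rose 1.34-fold (adjusted p = 2.00e-06), a rise that became a log2 change of -0.047 with libraries rescaled to equal sums and did not pass there. The ratio of Slc25a5 to Slc25a4, which a single factor per library leaves unchanged, was 6.84, 7.07 and 6.88 in WT and 4.36, 4.43 and 4.23 in KO. Its log2 difference was -0.68 with SDs of 0.025 in WT and 0.033 in KO (exact permutation p = 0.1, two-sided, the smallest that 3 against 3 libraries can give, and 0.12 after Benjamini-Hochberg adjustment over 6 paralogue pairs). The testis form Slc25a31 was listed at 0. The deposited Slc25a5 pseudogene row held 0.187 to 1.03 FPKM, and reads from unlisted copies of Slc25a5 could not be checked, so its level is uncertain. Slc25a5 (ENSMUSG00000016319) lies at mm10 chromosome X, 36795651 to 36798807, plus strand, and Slc25a4 (ENSMUSG00000031633) at chromosome 8, 46206797 to 46211284, minus strand.

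Slc25a3, the phosphate carrier, which also brings copper to the matrix, was at 133, 136 and 132 FPKM in WT and 161, 171 and 171 in KO. The KO values were higher throughout, and the rise was 1.255-fold (adjusted p = 5.30e-05), but the log2 change turned to -0.14 and was called lower with libraries rescaled to equal sums (adjusted p = 0.00446). The calcium-regulated ATP-Mg/phosphate carriers exchange adenine nucleotides with phosphate. Slc25a24 was at 2.13, 3.14 and 2.67 FPKM in WT and 2.44, 2.71 and 2.84 in KO. These groups overlapped, and the log2 change of 0.014 did not pass (adjusted p = 0.917). Slc25a25 was at 0.951, 1.08 and 1.11 FPKM in WT and 1.56, 1.75 and 1.61 in KO, a 1.57-fold rise (adjusted p = 0.00356). The rescaled change of Slc25a25 was 0.10 and did not pass, and that of Slc25a24 was -0.33 and was called lower. The ratio of Slc25a25 to Slc25a24 was 0.446, 0.345 and 0.416 in WT and 0.640, 0.646 and 0.568 in KO (exact permutation p = 0.1, adjusted 0.12). The other members of this group, Slc25a23 with at most 0.0738 FPKM, Slc25a41 and Slc25a54, were nearly or wholly unread.

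Both aspartate/glutamate carriers fell, and Slc25a12 had the largest fall of the tested members on the log2(FPKM + 1) scale. Slc25a12 (aralar) was at 42.9, 44.3 and 44.6 FPKM in WT and 8.41, 9.53 and 9.46 in KO. The lowest WT library thus stood more than 4 times above the highest KO library. The mean fell 4.81-fold from 43.9 ± 0.911 to 9.14 ± 0.629 FPKM (SD, n = 3 libraries each; log2 change -2.15, SE 0.05, adjusted p = 4.94e-08), from 14508 reads to 2487. Slc25a13 (citrin) was at 4.68, 3.86 and 4.44 FPKM in WT and 1.67, 1.94 and 2.56 in KO, all KO values below all WT values. It fell 2.10-fold (adjusted p = 0.000602). The sum of both went from 47.6, 48.2 and 49.0 FPKM in WT to 10.1, 11.5 and 12.03 in KO. Slc25a12 remained the more abundant in every library, and the ratio of Slc25a13 to Slc25a12 was 0.109, 0.0870 and 0.0997 in WT and 0.198, 0.203 and 0.271 in KO (log2 difference 1.176, exact permutation p = 0.1, adjusted 0.12). Slc25a12 (ENSMUSG00000027010) lies at chromosome 2, 71271063 to 71367749, minus strand. Its protein-coding neighbour Hat1 rose from 66.4 to 76.6 FPKM (adjusted p = 0.00220), and Dync1i2 on the other side had 4.29 FPKM in WT and 3.74 in KO and did not pass (adjusted p = 0.166).

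The other carrier of the malate-aspartate shuttle moved the other way. Slc25a11, the 2-oxoglutarate/malate carrier, was at 107, 117 and 113 FPKM in WT and 161, 160.3 and 157 in KO. All KO values were above all WT values, and the rise was 1.42-fold (adjusted p = 9.60e-06), with a rescaled log2 change of 0.034 that did not pass. Slc25a10, the dicarboxylate carrier that exchanges malate and succinate for phosphate, was at 24.2, 21.3 and 23.1 FPKM in WT and 38.9, 37.9 and 39.04 in KO. It rose 1.69-fold (adjusted p = 7.24e-06) and kept its call on rescaling (log2 change 0.28, adjusted p = 0.00214). The ratio of Slc25a10 to Slc25a11 was 0.226, 0.182 and 0.204 in WT and 0.243, 0.236 and 0.249 in KO, close groups that did not overlap (exact permutation p = 0.1, adjusted 0.12). Among the glutamate carriers, Slc25a22 fell from 1.36 ± 0.228 to 0.919 ± 0.168 FPKM (adjusted p = 0.0376), a call lost without WT replicate 2 or 3 or without KO replicate 1 or 2 and when every gene above 0 was tested. Slc25a18 had 1 read in all, and Slc25a21, the oxodicarboxylate carrier, was listed at 0.

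**Figure D2:**
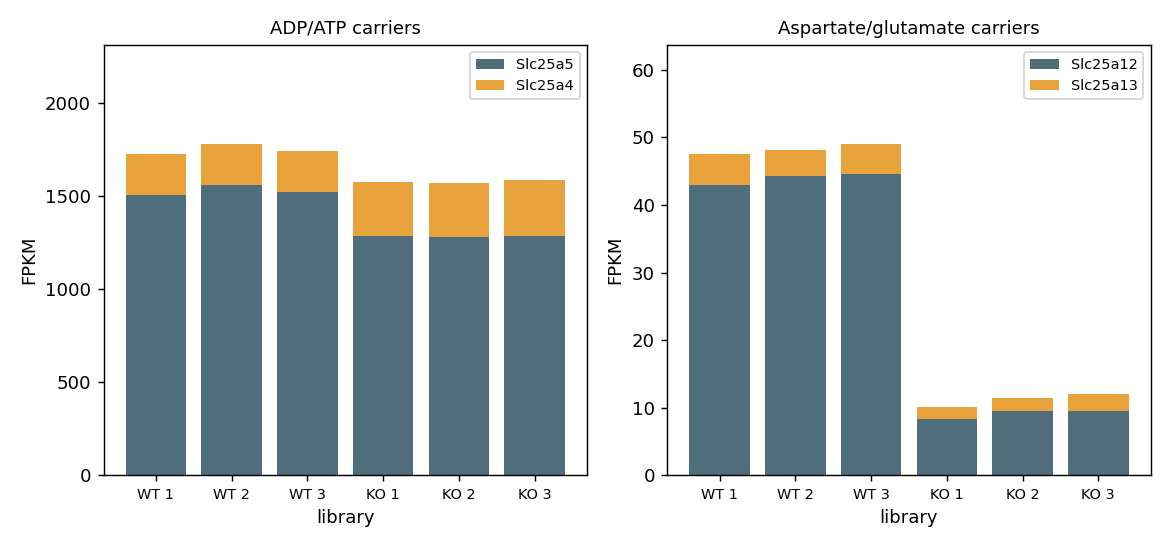
FPKM by library, stacked, for the ADP/ATP carriers Slc25a5 and Slc25a4 (left) and the aspartate/glutamate carriers Slc25a12 and Slc25a13 (right), each axis starting at 0. The left stacks stand at 1723 to 1778 FPKM in WT and 1569.6 to 1586 in KO, with a larger Slc25a4 part in KO, while the right stacks go from between 47.6 and 49.0 FPKM in WT to between 10.1 and 12.03 in KO.

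Carriers of other amino acids went both ways. Slc25a38, the glycine carrier that supplies the first step of haem synthesis, was at 9.91, 9.45 and 10.5 FPKM in WT and 3.64, 3.90 and 2.67 in KO. It fell 2.92-fold with no overlap (log2 change -1.32, SE 0.11, adjusted p = 2.49e-05). Slc25a15, the ornithine/citrulline carrier, was at 1.254, 1.51 and 1.44 FPKM in WT and 0.521, 0.661 and 0.694 in KO, a 2.24-fold fall (adjusted p = 0.000693). Slc25a29, a carrier of basic amino acids such as arginine and lysine, was at 2.81, 2.76 and 3.29 FPKM in WT and 7.23, 7.30 and 5.81 in KO, a 2.30-fold rise (adjusted p = 7.29e-05). The ratio of Slc25a15 to Slc25a29 was thus 0.447, 0.546 and 0.437 in WT and 0.0721, 0.0905 and 0.119 among the KO libraries, the largest difference of the 6 pairs (log2 difference -2.37, exact permutation p = 0.1, adjusted 0.12). Slc25a44, the branched-chain amino acid carrier, rose from 7.70 ± 0.619 to 10.1 ± 0.0511 FPKM (adjusted p = 0.00176), with a rescaled log2 change of -0.073 that did not pass. The ornithine carrier Slc25a2 was listed at 0. Slc25a20, the carnitine/acylcarnitine carrier by which fatty acids enter the matrix for oxidation, rose from 5.91 ± 0.483 to 7.93 ± 0.218 FPKM (adjusted p = 0.00179), and its rescaled change of -0.040 did not pass.

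Iron carriers fell together with the glycine carrier. Slc25a28 (mitoferrin 2) was at 5.35, 5.15 and 4.31 FPKM in WT and 2.99, 2.72 and 1.79 in KO, a 1.97-fold fall (adjusted p = 0.00200). Slc25a37 (mitoferrin 1, the form of erythroid cells) was at 2.01, 2.18 and 1.67 FPKM in WT and 0.987, 1.03 and 1.05 in KO, a 1.91-fold fall (adjusted p = 0.000970). The WT and KO values did not overlap for either gene, while their ratio did: Slc25a37 over Slc25a28 was 0.376, 0.424 and 0.388 in WT and 0.329, 0.380 and 0.589 in KO (log2 difference 0.084, exact permutation p = 0.9). The direction of that difference rested on KO replicate 3, without which it was -0.16. The erythroid marker list moved the other way, its 15 genes summing to 19.97 to 23.1 FPKM in WT and 92.3 to 92.7 in KO. All 7 tested erythroid markers rose (6 of 7 with libraries rescaled to equal sums), among them Hbb-bs and Hba-a1, while Alas2, the erythroid enzyme of haem synthesis, was listed at 0 in KO and at 0.0295 to 0.0460 FPKM in WT.

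Carriers of nucleotides and cofactors held both the largest rise among the tested members and a gene read in WT only. Slc25a16, linked to coenzyme A transport, was at 0.754, 0.725 and 0.561 FPKM in WT and 2.67, 3.34 and 3.04 in KO, and rose 4.44-fold (log2 change 1.26, SE 0.10, adjusted p = 1.25e-05), from 147 reads to 536. Its neighbour Dna2 rose as well, from 2.78 to 6.41 FPKM (adjusted p = 2.64e-05), and Tet1 on the other side was nearly unread. Slc25a42, the coenzyme A carrier, lay under the minimum mean, at 0.0262, 0.0829 and 0.0355 FPKM in WT and 0.222, 0.205 and 0.155 in KO, or 14 reads against 43. With every gene above 0 tested, its log2 change of 0.19 passed (limma adjusted p = 0.00614). Slc25a17, a peroxisomal carrier of coenzyme A, FAD and NAD, rose from 73.0 ± 5.27 to 89.2 ± 4.53 FPKM (adjusted p = 0.00300), but was called lower on rescaling (log2 change -0.18, adjusted p = 0.0212). Slc25a16 (ENSMUSG00000071253) lies at chromosome 10, 62920633 to 62946498, plus strand.

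Slc25a33, a pyrimidine nucleotide carrier, was at 20.8, 21.2 and 20.9 FPKM in WT and 9.16, 6.88 and 9.50 in KO. It fell 2.47-fold without overlap (log2 change -1.22, SE 0.11, adjusted p = 2.78e-05). Of its exonic bases 14.9% are shared with the gene Gm13068 on the other strand. Its reads are thus uncertain where strand was not used in counting, which no source here states. The same limit holds for Slc25a11 (8.92% shared), Slc25a46 (7.06%), Slc25a10 (6.60%) and Slc25a37 (6.33%), each overlapped on the other strand. Slc25a36, the pyrimidine carrier related to Slc25a33, was under the minimum, at 0.631 to 0.636 FPKM in WT and 0.749 to 0.864 in KO. Slc25a39, a glutathione carrier, was at 343, 351 and 359 FPKM in WT and 238, 233 and 229 in KO, a 1.504-fold fall (adjusted p = 6.06e-07). Its relative Slc25a40 had 12 reads in WT and none in KO, at most 0.0507 FPKM. Slc25a32, the folate and FAD carrier, was at 1.38 ± 0.239 FPKM in WT and 0.764 ± 0.384 in KO (adjusted p = 0.0388), a call lost when any library other than KO replicate 3 was left out, when every gene above 0 was tested and with the replicate number as a block. Slc25a51, the NAD carrier, was at 6.23, 5.67 and 5.66 FPKM in WT and 6.04, 6.43 and 5.68 in KO and did not pass (adjusted p = 0.603), with a log2 change of 0.041 and an SE of 0.069. On rescaling it was called lower, at -0.36.

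Slc25a26, which brings S-adenosylmethionine, the methyl donor, into the matrix, was read in WT only. It was at 1.91, 1.49 and 1.77 FPKM in the WT libraries, or 117, 130 and 120 reads, and was listed at 0 in all 3 KO libraries. With 367 reads against none, it was at least 101-fold lower in KO, taking 3 reads over the KO group as the floor. Its 6-library mean was under 1 FPKM, so it was not among the tested members. With every gene above 0 tested, its log2 change was -1.44 (limma adjusted p = 2.94e-05). A 0 in the table need not mean that a transcript was absent, since 4 mitochondrially encoded genes that every cell uses (mt-Nd4l, mt-Co2, mt-Co3 and mt-Atp8) were listed at 0 in all 6 libraries. Those 4 were unread in both genotypes, whereas Slc25a26 was read in WT, so they do not tell what its 0 in KO means. Another mitochondrially encoded gene, mt-Atp6, was listed at 0 in all WT libraries but not in all KO libraries. What the 0 of Slc25a26 in KO means was not tested. Slc25a26 (ENSMUSG00000045100) lies at chromosome 6, 94500331 to 94604672, plus strand, and shares 2.996% of its exonic bases with Lrig1.

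Members without a settled substrate included more such one-sided genes. Slc25a47 was at 2.59, 2.80 and 2.42 FPKM in WT and at 0, 0 and 0.0490 in KO, or 186 reads against 1. Scaled by library, its reads were 154 times as many in WT as in KO, with a 95% exact counting interval of 27.3 to 6106, and its log2 change was -1.83 (SE 0.08, adjusted p = 7.06e-07). Slc25a47 lies on chromosome 12, 108836046 to 108856815, plus strand, beside Slc25a29 (108825873 to 108835883, minus strand). These adjacent carriers differed in direction, since Slc25a29 rose. On the other side of Slc25a47, Wars, the tryptophanyl-tRNA synthetase, fell from 36.04 to 20.2 FPKM (adjusted p = 1.01e-05).

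Slc25a35 was the reverse case, at 0, 0.0301 and 0.0386 FPKM in WT and 1.98, 1.91 and 1.43 in KO, or 4 reads against 241. Scaled by library, reads were 72.9 times as many in KO as in WT, with a 95% exact counting interval of 28.1 to 269.6, and with every gene above 0 tested its log2 change was 1.43 (adjusted p = 6.88e-05). Of its exonic bases 31.3% are shared with Rangrf on the opposite strand, which was listed at 0 in all libraries, so the reads of this pair are uncertain. Slc25a35 lies at chromosome 11, 68968131 to 68974365, plus strand. Slc25a43 fell from 4.18 ± 0.0197 to 1.90 ± 0.152 FPKM (adjusted p = 2.34e-05). Slc25a45 was at 15.6, 15.5 and 17.2 FPKM in WT and 19.4, 17.1 and 17.6 in KO and did not pass (adjusted p = 0.0628). Slc25a46, an outer membrane protein of mitochondrial fission, was at 10.5, 10.2 and 9.07 FPKM in WT and 10.3, 10.5 and 11.4 in KO and did not pass (adjusted p = 0.195). Both were called lower on rescaling to equal sums, at -0.29 and -0.32. Slc25a45 was called higher by cyclic loess, quantile and mitochondrial-reference scaling, by voom, and without KO replicate 2 or WT replicate 3, with log2 changes of 0.17 to 0.24 (limma adjusted p from 0.00907 to 0.0486). Among relatives of the uncoupling proteins, Slc25a14 rose 1.72-fold from 5.51 ± 0.254 to 9.49 ± 1.29 FPKM (adjusted p = 0.000397) and Slc25a30 fell 1.72-fold from 1.36 ± 0.0292 to 0.793 ± 0.221 FPKM (adjusted p = 0.0105). Slc25a27, Slc25a34, Slc25a48 and Slc25a53 held at most 0.638 FPKM in any library.

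**Figure D3:**
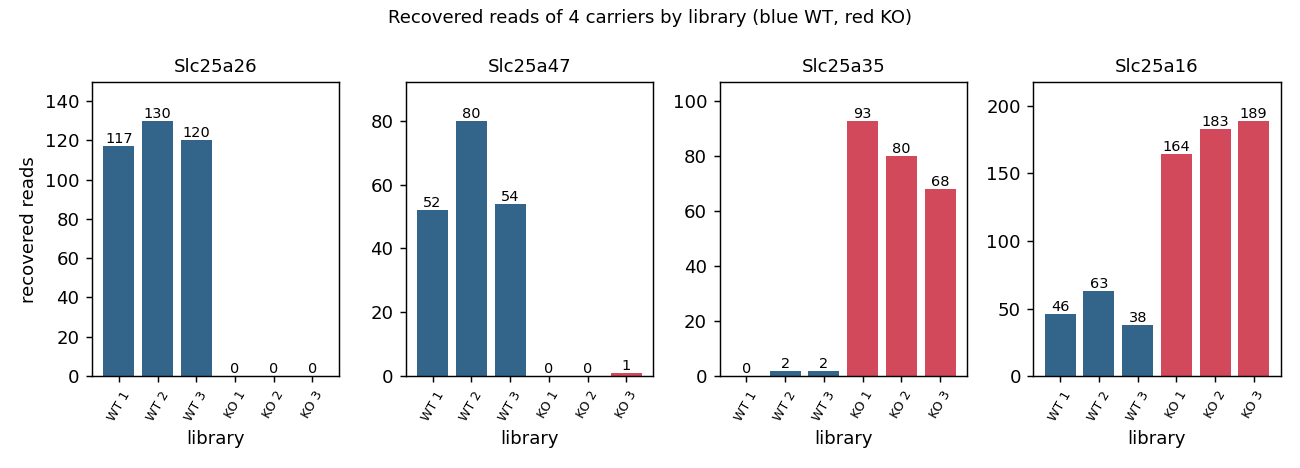
Recovered reads in each library, by bars starting at 0, for Slc25a26, Slc25a47, Slc25a35 and Slc25a16 (blue WT, red KO). Slc25a26 has 117 to 130 reads in WT and 0 in KO, Slc25a47 52 to 80 against at most 1, and Slc25a35 at most 2 against 68 to 93, while Slc25a16 is read in both genotypes.

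**Figure D4:**
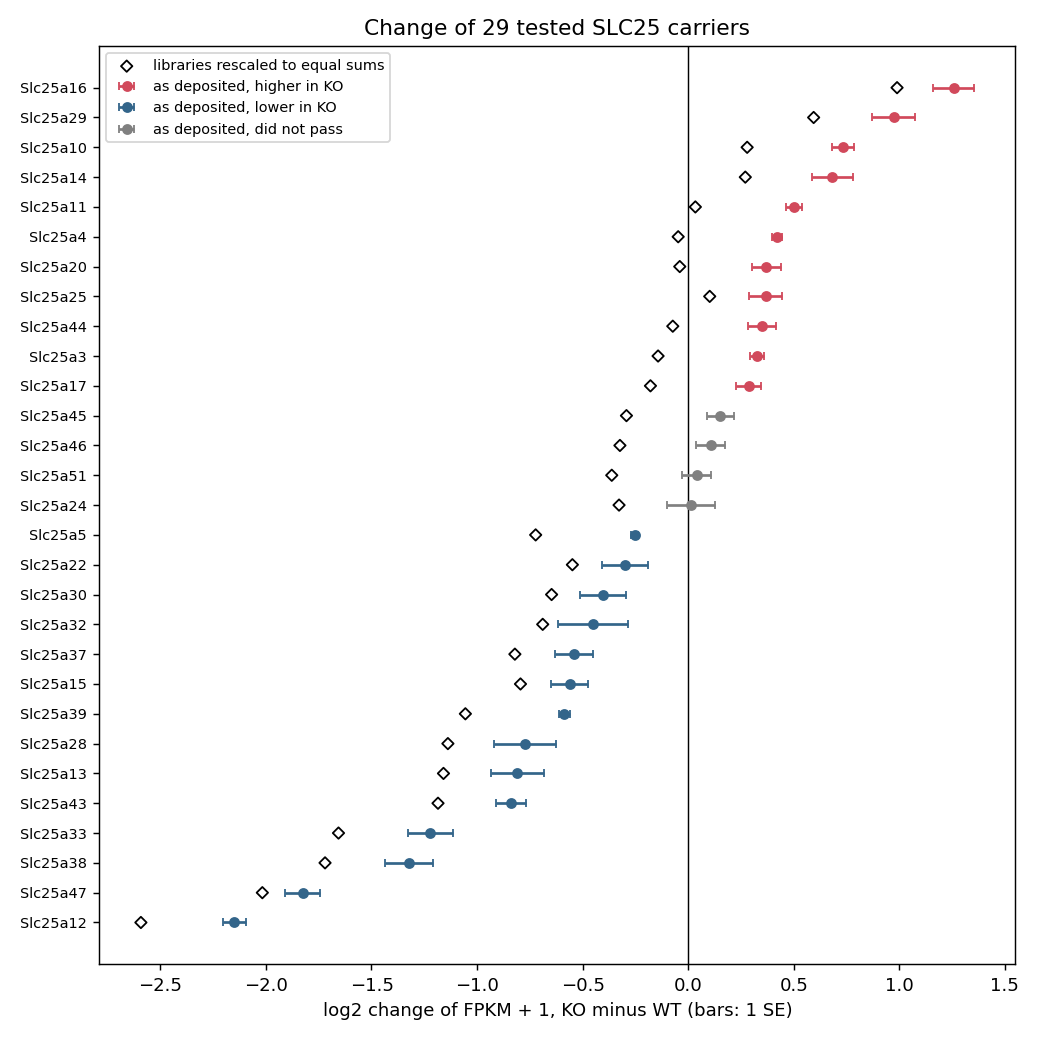
Log2 change of FPKM + 1, KO minus WT, for 29 tested carriers, with bars of 1 SE as deposited (red higher, blue lower, grey not passed) and open diamonds for libraries rescaled to equal sums. The members run from -2.15 (Slc25a12) to 1.26 (Slc25a16), and the rescaled value lies to the left of the deposited one in each of them.

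Genes that work beside the carriers were listed to place them. As background for each list's counts, 38% of the 9108 genes tested were higher in KO and 40.4% lower as deposited. On rescaling, 2074 genes were higher and 5383 lower. Carrier-family genes with other symbols rose in 3 of 3 tested cases (on rescaling Mtch2 was called lower, at -0.19, and the other 2 stayed higher): Mtch1, an outer membrane insertase, 2.53-fold from 14.1 ± 0.437 to 35.7 ± 0.932 FPKM, Ucp2, an uncoupling protein of blood cells, 2.16-fold from 81.6 ± 1.52 to 176 ± 3.20 FPKM, and Mtch2 1.22-fold (adjusted p of all 3 at most 0.000299). Of 16 tested transporters of the inner membrane outside the family, 7 rose, 5 fell and 4 did not pass (6 higher and 9 lower on rescaling). Micu2, a gatekeeper of the calcium uniporter, fell from 22.7 ± 0.843 to 5.23 ± 0.157 FPKM (adjusted p = 5.86e-08), while Smdt1, another uniporter subunit, had 412 ± 4.40 and 422 ± 5.36 FPKM (adjusted p = 0.134; called lower on rescaling, at -0.44). Mpc1 and Mpc2, the pyruvate carrier subunits, singled out after their values were seen, rose 2.28-fold and 3.58-fold to 84.9 and 59.0 FPKM. Of 4 outer membrane genes, Tspo rose 1.996-fold to 2441 FPKM and the 3 porins fell, Vdac2 most, by 1.87-fold from 102 to 54.6 FPKM.

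Genes whose proteins insert carriers into the inner membrane, the TIM22 complex with its small TIM chaperones and receptors, fell in 8 of 11 tested cases and rose in none, and 3 did not pass (all 11 were called lower on rescaling). Of all 9108 genes tested, 40.4% were lower as deposited and 5383 genes were lower on rescaling. Timm10, a chaperone of carrier precursors, fell 5.38-fold from 211 ± 5.81 to 39.2 ± 4.61 FPKM (adjusted p = 1.31e-07), and Timm13, the most abundant of the list, went down 1.44-fold, from 592 ± 10.3 to 411 ± 10.9 FPKM (adjusted p = 9.66e-07). The median log2 change of this list was -0.60, against 0.028 for the carriers and -0.022 for all genes. Of 8 tested mitochondrially encoded genes, 6 rose and 2 did not pass, but on rescaling 2 were higher and 5 lower. The rise of mt-Cytb, 1.77-fold to 3305 FPKM, kept its call there. That of mt-Nd3, 3.27-fold to 4.24 FPKM (adjusted p = 0.0253), had overlapping groups and lost it. Among the 74 nuclear-encoded mitochondrial genes, 31 rose, 37 fell and 6 did not pass (9 higher and 62 lower on rescaling), from Phb2 with a log2 change of -1.57 to Ndufa1 with 0.93.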

How the data were processed

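RNA of 6 libraries was measured by Smart-seq2 and Nextera XT sequencing on a NextSeq 500, per the labels' protocols. CASAVA, bcl2fastq, STAR 2.5.3a, DESeq2 1.18.1 and mm10 are named in the submitters' processing notes. The authors deposited 1 table of FPKM values; the sources used here name no read counter, annotation or strand setting. Genes averaging 1 FPKM or more were tested on log2(FPKM + 1) with limma 3.58.1 (R 4.3.3), a model of genotype with empirical Bayes and a mean-variance trend, two-sided, with Benjamini-Hochberg adjustment over 9108 genes at 0.05. This scale understates changes of low genes. Standard errors are limma's, and SDs are over 3 libraries.

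The FPKM values gave back whole reads, within a tolerance of 0.001, for all 21132 genes above 0: 16482 at the GENCODE M21 exonic length and 4650, 9 of them members (Slc25a47 included), at the shortest length that gives whole reads, where the number is a minimum. The library denominators of the FPKM are proportional to median-ratio size factors of these reads. Intervals and floors (3 reads over a group) cover counting error only, since PCR reads are not independent molecules. Pairs of libraries of one genotype differed by 2.52 to 3.18 times the sampling noise (chi-square per degree of freedom), so no library was treated as deposited again; this does not tell separate mice from separate preparations of 1 sample.

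Paralogue ratios were tested by exact permutation in scipy 1.17.1; tables and figures used Python 3.11.15, pandas 2.3.3, numpy 2.4.6 and matplotlib 3.10.9. The fit was run on simulated data in which most genes were unchanged and all libraries had the same scale. That run cannot speak to the scaling of these libraries. Positions came from GENCODE M21 and upstream sequence from RefSeq (GRCm38.p6). Protein sequence was not used here. Members, lists, pairs and alternatives were chosen with earlier results of these data known. The values of 1 member and 1 gene of another list are not reported here, though counts include them. Library values are given for members called with at least 2-fold, the 5 most abundant, those that did not pass and both members of each pair; from other lists, the largest reported rise, the largest fall and the most abundant gene. Mcub and Timm29 were matched through Entrez IDs, and of 21 and 11 list entries 20 and 11 were in the table. The alternatives were other pseudocounts, minimum means, scalings, variance models, a replicate block, each library left out, a 1.5-fold minimum and, added after seeing the data, voom on the recovered reads.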

Additional observations from a re-analysis of the deposited data

How the results depend on the processing

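Of 29 tested carriers, 16 kept their direction and their side of the threshold under every alternative that tested them, the 1.5-fold minimum not counted. A minimum mean of 5 FPKM tested only 17 members. With libraries rescaled to equal sums, 4 members were higher and 21 lower, the members' median log2 change was -0.34, and 2074 genes in all were higher. The log2 change turned negative there in Slc25a4 (-0.047), Slc25a3 (-0.14), Slc25a17 (-0.18), Slc25a45 (-0.29), Slc25a46 (-0.32), Slc25a44 (-0.073), Slc25a20 (-0.040), Slc25a51 (-0.36) and Slc25a24 (-0.33); the cause is the construction of the scaling, which lowers KO values relative to WT. Slc25a24, near 0, also turned with voom on the recovered reads (-0.0088), without KO replicate 3 (-0.021) and without WT replicate 1 (-0.091), and ran up to 0.11 without WT replicate 2. A minimum mean of 5 FPKM left 8 members higher and 5 lower with a median of 0.15, among 2072 higher and 2383 lower genes, since fewer genes were tested. With no filter, 5769 genes were lower. A 1.5-fold minimum left 4 members higher and 8 lower, and 2102 genes higher and 2257 lower. Without the 16 genes that were among the 10 most abundant of either genotype, the members took 0.628% of FPKM in WT and 0.555% in KO.

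Leaving out each library gave 11 to 13 members higher and 12 to 14 lower, with a median of -0.0053 to 0.066, and 3305 to 3380 genes higher and 3507 to 3603 lower. The log2 difference of the ratio of Slc25a37 to Slc25a28 then ran from -0.16 to 0.26, and the other 5 ratios kept their sign. With the replicate number as a block, 11 members were higher and 13 lower (3420 and 3620 of all genes), and Slc25a32 alone lost its call among the members. Libraries with the same number did not deviate together (correlations of -0.02 to 0.01), and not every library correlated best with its own number. No pairing by number was thus seen, but such correlations cannot tell whether same-numbered libraries were handled together. Among members under 1 FPKM, Slc25a26 had 367 reads in WT, Slc25a35 241 in KO, and Slc25a36 273 in WT and 283 in KO. The others rest on fewer reads. Of the members under 1 FPKM, Slc25a26, Slc25a34, Slc25a35 and Slc25a42 passed with every gene above 0 tested.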
